A study of Rattus norvegicus with 141 samples.

Results

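The livers and duodena compared here came from adult wild-type (WT) Sprague-Dawley rats that had been given vehicle and no microplastic. They make up 30 of the 141 libraries of a study of microplastic exposure, which sequenced polyadenylated RNA. All 16 liver vehicle controls were used, 8 from males and 8 from females, with 14 of the 15 duodenum vehicle controls, 7 from males and 7 from females. Male duodenum replicate 1 was left out because its marker genes were those of another stretch of the intestine, and the tables of the tissues were joined by gene identifier. The rats ate standard chow, and each sample was made from several small pieces of frozen tissue ground together, of a mass that varied. The homogenizer was rinsed with water between samples of a treatment and taken apart only between treatments. The labels place the libraries in 3 batches, without saying what a batch is. Whether each library stands for a different animal, and whether a liver and a duodenum came from one rat, is not stated there. The p-values therefore rest on the spread among the libraries.

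The liver and the duodenum sit at the ends of the portal circulation. Hepatocytes, the main cells of the liver, secrete most proteins of blood plasma, store and release glucose, turn ammonia into urea, and make bile acids, which reach the duodenum through the bile duct. Enterocytes, the absorptive cells of the duodenum, carry digestive enzymes on a brush border of microvilli, take up sugars, peptides, lipids and iron, and share their epithelium with goblet, Paneth, enteroendocrine, tuft and stem cells. Both epithelia derive from embryonic endoderm and share transcription factors such as HNF4A and GATA4.

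The marker genes matched the labels of all 30 libraries used. In CPM, counts scaled to a library total of 1e6, albumin (Alb) stood at 66890 to 134500 in the liver libraries and at 0.617 to 20.7 in the duodenum libraries. Villin (Vil1), a protein of the microvillus core, stood at 0 to 1.02 in liver and 976 to 2214 in duodenum. In the 14 duodenum libraries Pdx1, a factor of duodenum and pancreas, stood at 33.9 to 60.0 and the duodenal hormone Gip at 60.9 to 207. The ileal bile acid binding protein Fabp6 was at 0.0928 to 4.30 there. In the library left out Pdx1 was at 0, Gip at 0.392, Fabp6 at 3521 and Hoxb9, a posterior homeobox gene, at 41.6, against 0 in all of the 14.

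Total estimated counts ran from 6153370 to 20743100 (median 11267700) in liver and from 8104120 to 25503800 (median 10116400) in duodenum. The 10 most abundant genes took 22.1 ± 1.78% of all counts in liver (SD, n = 16) and 14.4 ± 2.86% in duodenum (n = 14). Levels below are CPM after TMM scaling of those totals, which corrects for such a difference in composition. They are not divided by gene length, so a level is compared between organs and not between genes. In bulk tissue, fewer cells of a type and less RNA per cell cannot be told apart.

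The duodenum pieces differed among themselves in the markers of several cell types. Smooth muscle markers, for example, summed to 1729 to 4697 CPM. Genes of pancreatic acinar cells, the cells that make digestive enzymes in the neighbouring pancreas, summed to 1.30, 550.3 and 51822 CPM (lowest, median and highest library), the highest being female replicate 4. Enterocyte markers summed to 2903, 6043 and 14425 CPM. In liver the acinar genes summed to 0.894 to 8.92 CPM in the libraries of males and 53.3 to 536 CPM in those of females. Hepatocyte markers summed to 130486, 171196 and 233187 CPM in liver.

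**Figure D1:**
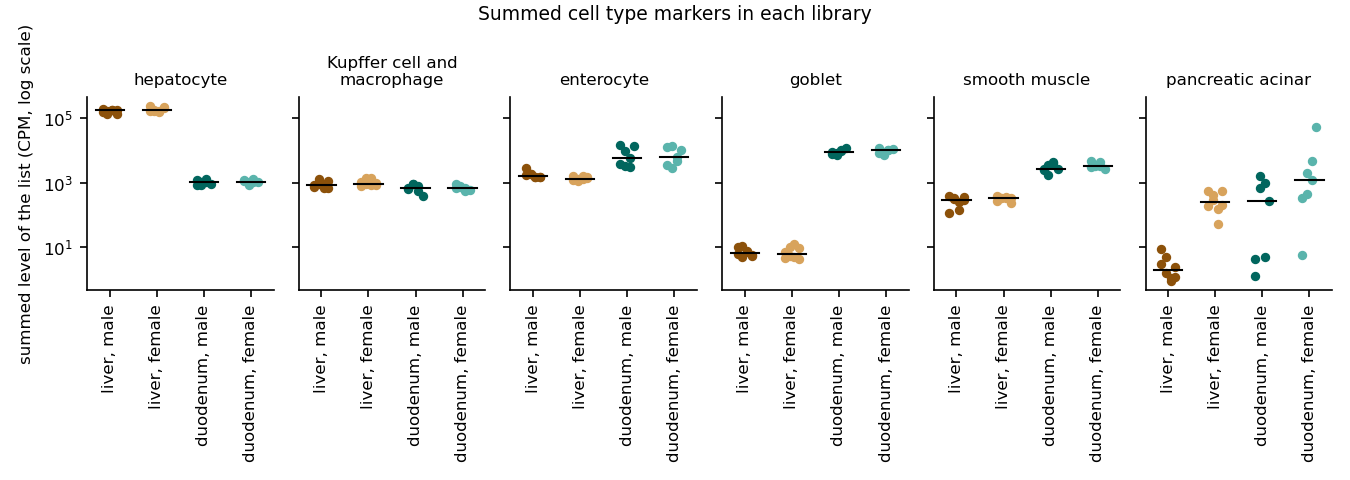
Summed level of the markers of 6 cell types (vertical, CPM on a log scale) in each library, by tissue and sex, with a bar at the median of each group. Hepatocyte markers separate the tissues completely, goblet and smooth muscle markers separate them the other way, and pancreatic acinar genes spread from 1.30 to 51822 CPM among the duodenum libraries.

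Most genes differed between the organs. Of 14926 genes tested with edgeR, 12340 (82.7%) had a Benjamini-Hochberg adjusted p under 0.05, 5695 (38.2%) higher in liver and 6645 (44.5%) higher in duodenum. A stricter test against a 2-fold difference was passed by 6037 genes (40.4%), 2511 (16.8%) higher in liver and 3526 (23.6%) higher in duodenum. For 5157 genes (34.6%) no liver library overlapped any duodenum library. Differences below are log2(liver/duodenum) ± SE, positive where liver was higher, and "called" means an adjusted p under 0.05. The median over all genes was -0.088 and the median size 0.90. There were 124 genes with no count in any liver library and 28 with none in any duodenum library.

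In the sexes taken separately, 10101 genes were called in males alone and 10641 in females alone. Within batch 1 there were 10983 calls and within batch 2 11013, and of the 12340 calls, 12276 and 12211 had the same sign there. With male duodenum replicate 1 added there were 12308 calls. Scaling by library totals, without a correction for composition, moved the median of all genes by -1.07 and gave 2267 genes higher in liver against 11432 higher in duodenum. It turned the sign of 2919 calls and of 0 of the genes over 2-fold (1332 against 7401 by that scaling). A log2 difference of less than about that shift therefore depends on the scaling, and for named genes the value by library totals is given where it has the other sign.

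**Figure D2:**
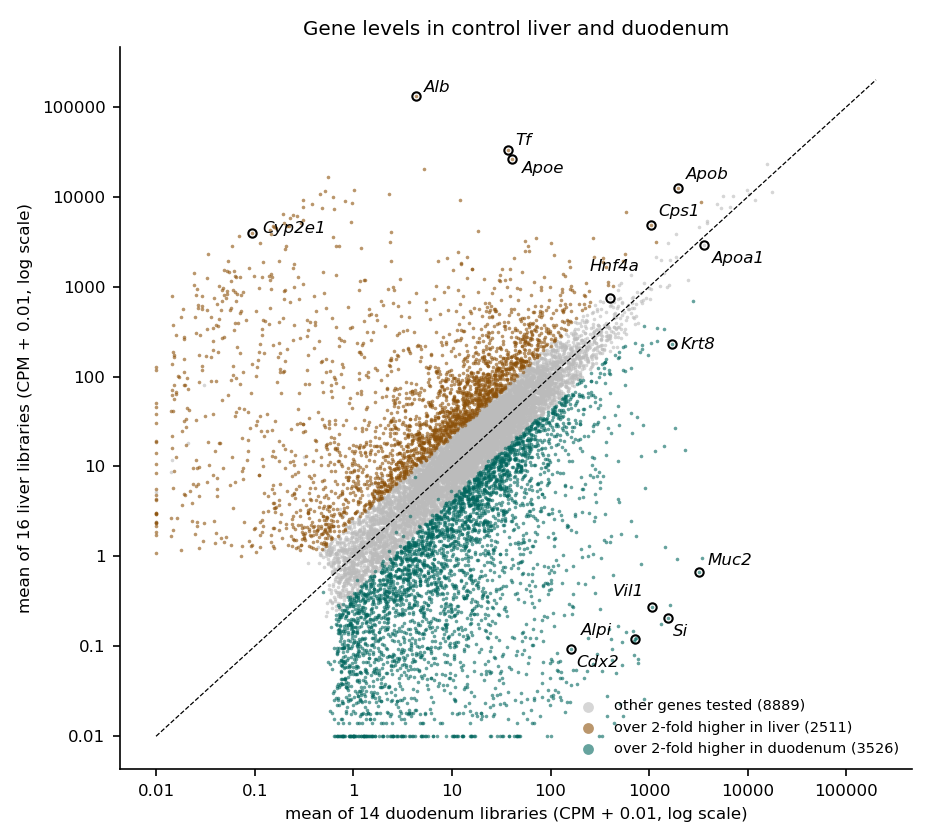
Mean level of each tested gene in the 14 duodenum libraries (horizontal) and the 16 liver libraries (vertical), as CPM + 0.01 on log scales, with the line of equality dashed. Genes over 2-fold higher in liver (2511) and in duodenum (3526) are coloured, and 14 named genes are circled, from Alb at the top to Cdx2 and Alpi at the bottom right.

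Most of the 10 liver-higher genes with the highest CPM encode secreted plasma proteins. Alb was at 88453, 125115 and 197674 CPM in liver (lowest, median and highest library, the order used throughout) and 0.413, 2.73 and 13.6 CPM in duodenum, a difference of 15.07 ± 0.64 (edgeR adjusted p = 1.63e-19). Transferrin (Tf), the iron carrier of plasma, was at 24921, 33054 and 40729 CPM in liver and 30.4, 37.2 and 41.7 CPM in duodenum. Apolipoprotein E (Apoe), which directs lipoprotein remnants to their receptors, was at 19879, 25251 and 34046 CPM in liver and 25.1, 39.8 and 64.3 CPM in duodenum. For these 3 genes each liver library lay far above every duodenum library. Complement C3 (11.92 ± 0.37), the vitamin D binding protein Gc (14.49 ± 0.34), the protease inhibitor Serpina1 (12.20 ± 0.28), the alpha-macroglobulin relative Mug1l1 (15.08 ± 0.51) and the gene listed as AABR07034632.1 (14.63 ± 0.45) also had no overlap. Apob, the backbone of chylomicrons and of very low density lipoproteins, was higher in liver (2.68 ± 0.37) with overlap, at 3442, 12846 and 21172 CPM against 430.2, 1076 and 4919 CPM. Mup5, a major urinary protein, was abundant only in the livers of males and is described with the sexes below. Adjusted p of these 10 genes ran from 4.04e-31 to 1.46e-07 by edgeR.

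Of the plasma carrier proteins and inhibitors, 19 of 19 tested were higher in liver (38.2% of all genes were), with a median of 14.40. Itih3, a heavy chain of the inter-alpha-inhibitor, was at 3601, 4835 and 8083 CPM in liver and 0.0826, 0.242 and 0.657 CPM in duodenum. Serpina6, the corticosteroid carrier, was at 671, 914 and 1270 CPM in male livers and 1402, 2064 and 2347 CPM in female livers. In duodenum it reached at most 0.219 CPM. All 20 coagulation factors were higher in liver, with a median of 12.18 and no overlap for any of them (14.9% of all genes were higher in liver without overlap). Factor IX (F9), which is missing in haemophilia B, stood at 695, 969 and 1369 CPM in liver and 0, 0.0288 and 0.126 CPM in duodenum. F12, which starts the contact pathway (10.70 ± 0.17), F13b, the carrier subunit of factor XIII (9.87 ± 0.16), and Cpb2, an inhibitor of clot lysis (13.56 ± 0.22), also had among the smallest p of the list. Adjusted p of the 4 ran from 9.22e-30 to 1.44e-29 by edgeR.

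Complement and endocrine genes of the liver were higher there as well. All 19 complement genes tested were called higher in liver, with a median of 8.55, though 1 of them changed sign under library totals. The membrane attack component C8a was at 886, 1433 and 1982 CPM against 0.0826, 0.516 and 0.877 CPM, and C5 (11.98 ± 0.22), the lectin pathway protease Masp2 (9.75 ± 0.17) and vitronectin, Vtn (12.53 ± 0.24), followed. Among 17 genes of hormones and hormone receptors of the liver, 17 were higher there, with a median of 4.92. Angiotensinogen (Agt), the precursor of angiotensin, was at 821, 1121 and 1835 CPM in liver and 0.607, 1.17 and 2.65 CPM in duodenum. Igfals, which holds IGF in plasma, differed by 12.65 ± 0.25 and the growth hormone receptor Ghr by 4.39 ± 0.10. No library of the tissues overlapped for these 7 genes, and their edgeR adjusted p ran from 7.11e-30 to 3.3e-26.

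The 10 duodenum-higher genes with the highest CPM include those of the mucus layer and the absorptive surface. Muc2, the gel-forming mucin of intestinal mucus, was at 1825, 2916 and 5288 CPM in duodenum and 0, 0.396 and 3.14 CPM in liver (-12.32 ± 0.38, edgeR adjusted p = 5.11e-23). Fcgbp, a mucus protein cross-linked with it, was at 2263, 3523 and 4401 CPM against 0, 0.552 and 3.28 CPM. Sucrase-isomaltase (Si), which splits sucrose and starch fragments, was at 542, 1199 and 2790.1 CPM in duodenum and 0, 0.0697 and 1.23 CPM in liver (-12.83 ± 0.45). No liver library reached a duodenum library for these 3, as for 19.7% of all genes. Rbp2, the retinol binding protein of enterocytes (-11.30 ± 0.38), the calbindin S100g, which carries calcium (-10.53 ± 0.49), Lypd8l2 (-12.53 ± 0.39) and the mucosal scavenger receptor Dmbt1 (-7.26 ± 0.23) were likewise separate. The immunoglobulin heavy chain Ighm differed by -6.13 ± 0.25. Smaller differences were found for Krt8, a keratin of simple epithelia (-2.91 ± 0.10), and for Actbl2, an actin-like gene whose reads may be shared with other actins (-1.97 ± 0.090). Adjusted p of the 10 ran from 3.59e-23 to 4.79e-18 by edgeR.

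Brush border enzymes were mostly duodenal. Of 17 tested, 14 were higher in duodenum (44.5% of all genes were), 1 was higher in liver and 2 were not called, with a median of -9.94. Intestinal alkaline phosphatase (Alpi) was at 185, 594 and 1469 CPM in duodenum and at most 1.12 CPM in liver. Trehalase (Treh) was at 43.4, 122 and 237 CPM and Mme, the peptidase neprilysin, at 109, 244 and 511 CPM, against at most 0.131 and 7.11 CPM in liver. These ranges did not overlap, although the enterocyte markers varied between the duodenum pieces. The protocadherin Cdhr5, which links neighbouring microvilli, differed by -12.07 ± 0.42. The exception was the aminopeptidase Xpnpep2, at 0.91 ± 0.13 with overlap and at -0.13 by library totals. Without duodenum female replicate 4, a setting chosen after seeing the data, the counts of the list were the same and its median -9.79.

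Transporters of nutrients divided. Of 18, 14 were higher in duodenum and 3 in liver (44.5% and 38.2% of all genes were), with a median of -3.21. SGLT1 (Slc5a1), which brings glucose into the enterocyte with sodium, was at 130.4, 402 and 569 CPM in duodenum and 0.368, 1.1 and 5.05 CPM in liver. PepT1 (Slc15a1), the carrier of small peptides, was at 47, 82.0 and 196 CPM in duodenum and at most 0.336 CPM in liver. The amino acid carriers Slc1a1, at 4.57 to 7.77 CPM in duodenum and at most 0.150 CPM in liver, and Slc7a8 (-4.70 ± 0.18) were also duodenal, without overlap. GLUT2 (Slc2a2), a facilitative glucose carrier of both organs, was higher in liver (1.53 ± 0.21), as was the vitamin C carrier Slc23a1 (2.18 ± 0.13). The folate carrier Slc46a1 was called higher in liver at 0.85 ± 0.34 but stood at -0.16 by library totals and lost its call in females alone and within each batch. For these transporters the adjusted p ran from 1.86e-21 to 0.0253 by edgeR.

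Genes that handle amino nitrogen were higher in liver. All 8 urea cycle genes were called higher in liver (median 3.33), though 1 turned sign under library totals. Argininosuccinate synthase (Ass1) was at 3123, 4041 and 4741 CPM in liver and 1.24, 2.27 and 4.85 CPM in duodenum. Arginase 1 (Arg1), which releases urea, was at 625, 1221 and 2115 CPM against 1.27, 2.79 and 5.06 CPM. Asl (6.64 ± 0.12) and the aspartate carrier Slc25a13 (4.05 ± 0.076) were also without overlap. All 20 genes of amino acid breakdown were higher in liver without overlap, with a median of 11.30. Fah, the last enzyme of tyrosine breakdown, was at 544, 656 and 908 CPM in liver and 4.05, 5.65 and 6.75 CPM in duodenum (6.94 ± 0.099). The histidine enzyme Hal was at 341, 399 and 514 CPM in male livers and 741, 836 and 993 CPM in female livers. In duodenum it reached at most 0.123 CPM. Uroc1, the next enzyme of that pathway, reached 335 to 727 CPM in liver and at most 0.0795 in duodenum, and Agxt, which removes glyoxylate, 133 to 272 against at most 0.0634 CPM. Over these nitrogen genes the adjusted p ran from 2.89e-31 to 7.88e-26 by edgeR.

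Glucose handling differed by enzyme form. Of 19 genes, 12 were higher in liver and 6 in duodenum (38.2% and 44.5% of all genes were). The median was 2.25, and 1 call turned sign under library totals. Liver had more of the glycogen phosphorylase Pygl (5.16 ± 0.10), of pyruvate carboxylase, Pc (5.11 ± 0.16), which feeds gluconeogenesis, and of the glucose-6-phosphate carrier Slc37a4 (2.25 ± 0.072). The liver glycogen synthase Gys2 was at 46.4, 67.8 and 99.5 CPM in liver and 0, 0.119 and 0.632 CPM in duodenum. The duodenum had more of the platelet-type phosphofructokinase Pfkp (-6.13 ± 0.15), at 107, 152 and 233 CPM against 1.34, 1.96 and 3.47 CPM. Hexokinase 2 (Hk2, -3.35 ± 0.19), aldolase A (Aldoa, -2.76 ± 0.082) and the muscle-type glycogen synthase Gys1 (-1.53 ± 0.11) were higher there too. All 8 genes were without overlap, with edgeR adjusted p from 1.06e-27 to 1.13e-13. Pyruvate kinase Pklr, a form of liver and intestine, was not called (0.17 ± 0.15, edgeR adjusted p = 0.289, and -0.86 by library totals).

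Bile acids link the organs, since the liver makes them and the gut takes them up again. All 13 genes of bile acid synthesis and conjugation were higher in liver, with a median of 6.89. Cyp8b1, which sets the share of cholic acid, was at 395, 687 and 1435 CPM in liver and at most 0.0823 CPM in duodenum. Baat, which joins bile acids to taurine or glycine, was at 644, 1038 and 3314 CPM and 0, 0.119 and 0.365 CPM. Cyp27a1, of the acidic pathway, differed by 4.70 ± 0.12 and the peroxisomal oxidase Acox2 by 14 ± 0.25.

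The 17 genes of bile acid and bile lipid transport fell on both sides, 10 higher in liver and 7 in duodenum (median 2.64). Of all genes, 38.2% were higher in liver and 44.5% in duodenum. NTCP (Slc10a1), which brings bile acids from blood into hepatocytes, was at 642, 731 and 902 CPM in liver and at most 0.219 CPM in duodenum. The organic anion carriers Slco1b2 (14.78 ± 0.27) and Slco1a1 (13.12 ± 0.24) were likewise hepatic. BSEP (Abcb11), the bile salt export pump, was at 497, 1062 and 1299 CPM in liver and 0.716, 1.97 and 6.93 CPM in duodenum. The phospholipid flippase Abcb4 (7.00 ± 0.19), the conjugate pump Abcc2 (4.05 ± 0.31), the FGF receptor Fgfr4 (3.01 ± 0.11) and its coreceptor Klb (5.06 ± 0.20) completed the liver side without overlap. The bile acid receptor FXR (Nr1h4) was higher in liver (2.64 ± 0.095) and its target Nr0b2 too (2.42 ± 0.28), the latter with overlap.

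On the duodenal side, Slc51a, a subunit of the basolateral exporter of bile acids, was at 82.6, 115 and 163 CPM in duodenum and at most 0.145 CPM in liver. Its partner Slc51b was at 13.2, 23.6 and 46.8 CPM in duodenum and at most 0.123 CPM in liver. ASBT (Slc10a2), which takes bile acids up in the ileum, was low in both organs, at 1.38, 3.36 and 8.23 CPM in duodenum and 0.101, 1.26 and 8.92 CPM in liver (-1.45 ± 0.23). In males alone it stood at 0.46, the other direction, and it is taken up again with the sexes. Abcc3 (-2.39 ± 0.19) and the aminophospholipid flippase Atp8b1 (-1.80 ± 0.12) were without overlap. The sterol exporter subunits Abcg5 (-0.67 ± 0.25) and Abcg8 (-1.30 ± 0.26) were called with overlap, and Abcg5 lost its call in males alone, within batch 2 and with no batch term. Adjusted p over the transport genes named ran from 9.08e-29 to 0.0161 by edgeR.

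Both organs assemble lipoproteins, chylomicrons in the gut and very low density lipoproteins in the liver. Of 27 genes of lipid absorption and assembly, 16 were higher in liver, 7 in duodenum and 4 were not called (median 1.5). Of all genes, 38.2% were higher in liver and 44.5% in duodenum. Apolipoprotein A1 (Apoa1), the main protein of high density lipoprotein, was not called (-0.34 ± 0.36, edgeR adjusted p = 0.382), at 1550.1, 2053 and 5791 CPM in liver and 494, 1945 and 9402 CPM in duodenum. Apoa4, a chylomicron protein, was not called either (-0.58 ± 0.56, edgeR adjusted p = 0.337), at 445, 969.8 and 2325 CPM in liver and 35, 464 and 4306 CPM in duodenum. In both genes the duodenum libraries ran wider than those of liver and enclosed them. The editing enzyme Apobec1 (-0.13 ± 0.15) and the receptor Scarb1 (-0.16 ± 0.12) were also not called. By library totals these 4 genes were called higher in duodenum, Apoa1 at -1.35 and Apoa4 at -1.56.

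Other apolipoproteins were hepatic. Apoa2 was at 722, 1252 and 2274 CPM in liver and at most 0.365 CPM in duodenum, and Apoc1 was at 4595, 7381 and 16908 CPM against 0, 0.363 and 0.863 CPM. Apoa5 (12.78 ± 0.43), Apom (9.52 ± 0.19), Apoc3 (5.61 ± 0.39) and Apoc2 (4.41 ± 0.48) were higher in liver without overlap. So were the hepatic lipase Lipc (12.02 ± 0.21), the cholesterol acyltransferase of plasma Lcat (9.84 ± 0.24), the phospholipid carrier Pltp (1.66 ± 0.14) and the triglyceride synthase Dgat2 (2.98 ± 0.18). The fatty acid binding protein Fabp1 (1.45 ± 0.27) was higher in liver with overlap, and it lost its call under library totals. Sar1b, which drives the budding of chylomicron carriers, was at 0.56 ± 0.18 and turned to -0.49 by library totals, and it was not called in either sex alone.

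Uptake and re-esterification of lipid were duodenal. Npc1l1, the cholesterol importer of enterocytes and the target of ezetimibe, was at 90.5, 135 and 243 CPM in duodenum and at most 0.224 CPM in liver. Fabp2, the intestinal fatty acid binding protein, was at 84.1, 342 and 1545 CPM in duodenum and 0.145, 1.25 and 6.58 CPM in liver (-8.30 ± 0.47). Mogat2, which rebuilds triglyceride from monoglyceride, was at 30.9, 59.8 and 88.4 CPM and 0, 0.184 and 1.87 CPM (-7.93 ± 0.28). None of these overlapped, and neither did Dgat1 (-3.18 ± 0.15). Mttp, which loads lipid onto apolipoprotein B (-1.37 ± 0.13), and the cholesterol-esterifying enzymes Soat1 (-1.48 ± 0.15) and Soat2 (-0.45 ± 0.11) were higher in duodenum with overlap, and Soat2 lost its call within batch 1. The lipoprotein genes named as called had adjusted p from 6.99e-29 to 0.0064 by edgeR.

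Lipid synthesis and oxidation were mostly higher in liver. For cholesterol synthesis 16 of 17 genes were higher in liver (median 2.09), 3 of which turned sign under library totals. Nsdhl was at 392, 472 and 564 CPM in liver and 20.02, 25.6 and 30.0 CPM in duodenum (4.22 ± 0.072), and Cyp51 (2.28 ± 0.11) and Pmvk (2.30 ± 0.12), enzymes of the same pathway, were also without overlap. For fatty acid synthesis 8 of 10 were higher in liver, among them the regulator Srebf1 (2.65 ± 0.13), citrate lyase Acly (2.67 ± 0.16), Gpam, the first enzyme of glycerolipid synthesis (3.63 ± 0.12), and Acacb (4.24 ± 0.16). The remaining 2 were higher in duodenum with overlap, malic enzyme Me1 (-1.59 ± 0.22) and the elongase Elovl6 (-1.27 ± 0.19), which stood at 0.11 in females alone. All 18 genes of fatty acid oxidation and ketone synthesis were called higher in liver (median 1.88), 4 of which turned sign under library totals. The ketone enzyme Bdh1 (2.05 ± 0.086) and the peroxisomal thiolase Acaa1a (3.62 ± 0.13) did not overlap. Cyp4a2, a fatty acid hydroxylase, was at 315, 704.5 and 1579.7 CPM in male livers and 1.62, 2.61 and 3.59 CPM in female livers. In duodenum it reached at most 0.185 CPM. These lipid genes had adjusted p from 3.74e-29 to 4.45e-07 by edgeR.

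Drug-metabolising genes were mostly higher in liver, with exceptions in each family. Of 26 cytochromes P450, 20 were higher in liver and 5 in duodenum (38.2% and 44.5% of all genes were). The median was 6.83, with 3 calls turned by library totals. Cyp2e1, which oxidises ethanol, was at 1887, 3777 and 6645 CPM in liver and at most 0.238 CPM in duodenum. Cyp1a2, which oxidises caffeine, was at 517, 644 and 682 CPM in male livers and 889, 1150 and 1232 CPM in female livers. In duodenum it reached at most 0.379 CPM. Cyp2a2 was at 359 to 685 CPM in male and 1167 to 2001 CPM in female livers, and Cyp2c23 at 754 to 1633 CPM in liver. Cyp2b1 was at 4.96, 24.1 and 92.6 CPM in duodenum, 3.07 to 12.8 CPM in male livers and 0 to 1.25 CPM in female livers. Cyp3a62 was at 11.8, 19.8 and 170.3 CPM in duodenum and 0.478, 3.98 and 17.3 CPM in liver. Both were higher in duodenum with overlap. Cyp2s1 (-4.89 ± 0.31) and Cyp1b1 (-4.32 ± 0.22) were higher in duodenum without overlap. Members of these families are near-identical in sequence, and reads may have been split between them.

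Among 20 conjugating enzymes 16 were higher in liver and 3 in duodenum (38.2% and 44.5% of all genes were). The median was 3.21, with 2 calls turning under library totals. The sulfotransferase Sult1a1 was at 468, 612 and 1073 CPM in liver and 1.23, 2.09 and 4.13 CPM in duodenum. Sult2a1 was at 193, 493 and 1653 CPM in male livers and 2362, 3315 and 7025 CPM in female livers. In duodenum Sult2a1 reached at most 0.247 CPM. The glutathione transferases Gstm1 (5.2 ± 0.12) and Gstm2 (4.78 ± 0.12) were hepatic, while Gstp1 was at 101, 124 and 186 CPM in duodenum and 6.09, 8.07 and 13.6 CPM in liver (-3.97 ± 0.13). The glucuronosyltransferase Ugt2b7 (-7.83 ± 0.33) and, with overlap, Gsta3 (-1.11 ± 0.20) were also higher in duodenum. Over the drug metabolism genes the adjusted p ran from 5.69e-29 to 1.18e-05 by edgeR.

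**Figure D3:**
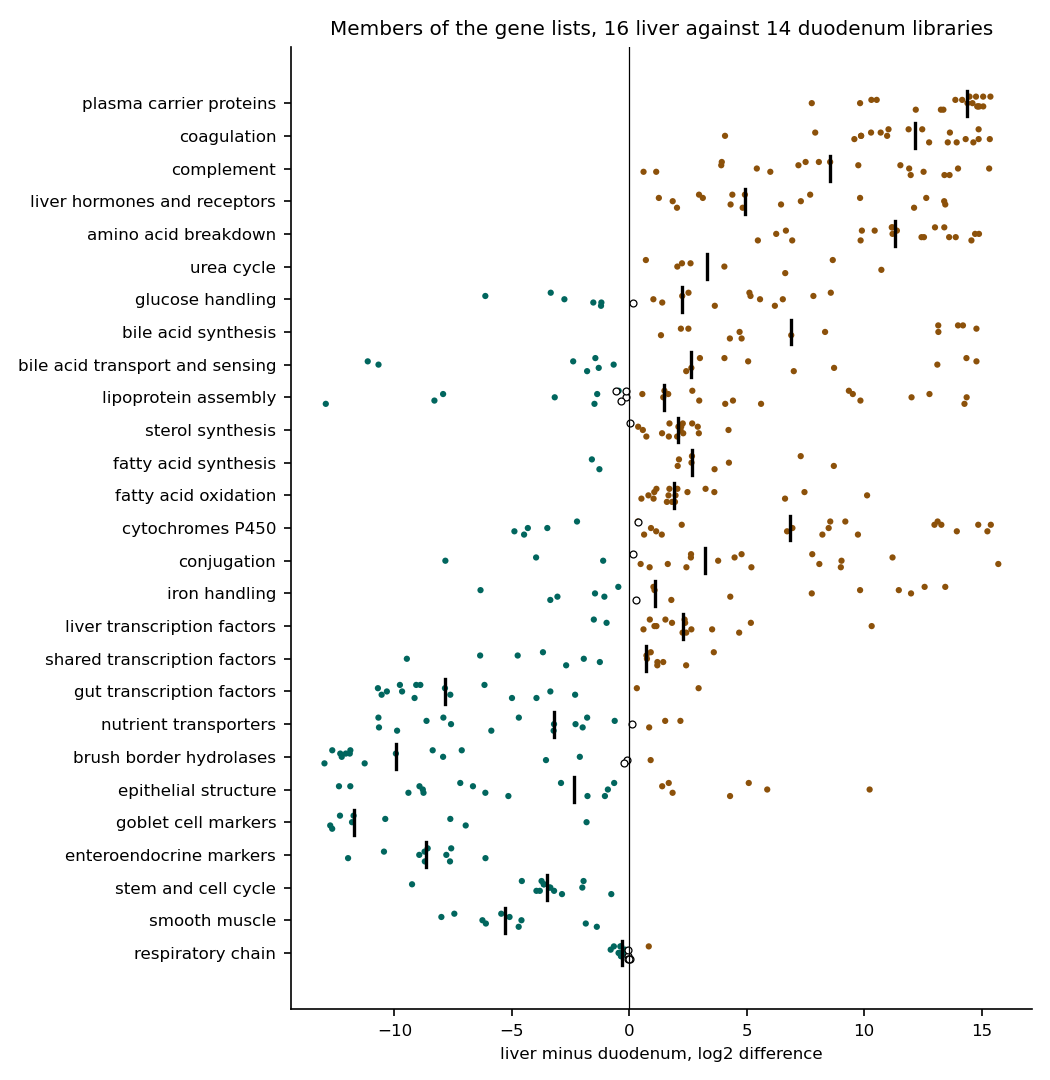
Log2 difference between liver and duodenum (horizontal) of each tested member of 27 gene lists, brown where called higher in liver, teal where called higher in duodenum and open where not called, with a bar at the median of the list. Coagulation (median 12.18) and goblet cell markers (-11.74) lie at opposite ends, and the respiratory chain (-0.30) lies near 0. Members called at less than about 1.07 above 0 turn sign under library totals.

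Iron enters the body in the duodenum and is governed by hepcidin from the liver. Of 17 iron genes 10 were higher in liver and 6 in duodenum (38.2% and 44.5% of all genes were). The median was 1.07, and 1 call turned under library totals. The sensors of the hepcidin circuit were hepatic. Tfr2 was at 238, 342 and 470.2 CPM in liver and 0, 0.0669 and 0.432 CPM in duodenum, the protease Tmprss6, which restrains hepcidin, at 289, 381 and 678 CPM and 0, 0.0620 and 0.165 CPM, and the BMP coreceptor Hjv at 49.8, 112 and 203 CPM in liver and at most 0.0826 CPM in duodenum. The absorptive machinery was duodenal: DMT1 (Slc11a2), which imports ferrous iron, was at 49.3, 152 and 391 CPM in duodenum and 14.8, 20.4 and 25.1 CPM in liver. Its ferric reductase Cybrd1 (-3.36 ± 0.19) and the ferroxidase hephaestin, Heph (-6.34 ± 0.28), did not overlap between organs, whereas the transferrin receptor Tfrc (-1.46 ± 0.12) did. Adjusted p of these 7 ran from 5.33e-28 to 1.16e-12 by edgeR.

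The transcription factors that both epithelia share were split. Of 15 factors of endodermal epithelia, 8 were called higher in liver and 7 in duodenum (median 0.73). Of all genes, 38.2% were higher in liver and 44.5% in duodenum. Under library totals 3 of the liver calls turned sign. HNF4A (Hnf4a), a nuclear receptor at the centre of both programmes, was at 538, 704 and 1112 CPM in liver and 341, 379.6 and 563 CPM in duodenum, 0.91 ± 0.069 on the log2 scale but -0.15 by library totals. The forkhead factor Foxa3 was at 0.73 ± 0.13 (-0.34 by library totals) and lost its call within batch 1. Both overlapped between the organs.

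Foxa2 was at 28, 55.3 and 92.9 CPM in liver and 2.21, 4.59 and 6.69 CPM in duodenum, and Foxa1 at 20.9, 31.3 and 57.2 CPM and 4.04, 7.04 and 8.09 CPM, both without overlap. Nr5a2, which drives bile acid synthesis (1.19 ± 0.097), and the ER membrane factor Creb3l3 (1.20 ± 0.16) were higher in liver by smaller amounts, and both lost their calls under library totals. The duodenum had more Klf5, a factor of crypt cells, at 233, 271 and 345 CPM against 0.101, 0.414 and 0.612 CPM (-9.47 ± 0.13). Elf3 (-6.35 ± 0.17), Hnf4g (-4.75 ± 0.21), Sox9 (-3.68 ± 0.15), Grhl2 (-2.69 ± 0.17), Gata4 (-1.94 ± 0.082) and Gata6 (-1.25 ± 0.11) were likewise higher there without overlap. The shared factors named had adjusted p from 5.29e-31 to 6.48e-06 by edgeR.

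Of 17 factors known for hepatocyte roles, 15 were higher in liver and 2 in duodenum (median 2.27). Onecut1, also called HNF6, was at 15.8, 96.7 and 361 CPM in liver and 0, 0.0614 and 0.442 CPM in duodenum. The homeobox factors Hhex (5.18 ± 0.29) and Prox1 (4.68 ± 0.22), which act early in liver formation, were without overlap, as were Rora (3.53 ± 0.17), Nfia (2.27 ± 0.11) and the drug-sensing receptor Nr1i2 (1.82 ± 0.088). Cebpa (2.35 ± 0.28), Cebpb (2.38 ± 0.15), Nr1i3 (1.54 ± 0.12) and Ppara, the receptor that governs fatty acid oxidation (1.16 ± 0.18), were higher in liver with overlap, and Ppara lost its call under library totals. Cebpa was low in both organs, at 0.451 to 4.59 CPM in liver and at most 1.49 CPM in duodenum. Onecut2 (0.60 ± 0.15), Zhx2 (0.87 ± 0.081) and Esrrg (1.07 ± 0.17) were called higher in liver but stood at -0.45, -0.19 and -0.0032 by library totals, and Onecut2 lost its call in males alone and within batch 2. Tbx3 (-1.51 ± 0.28) and the clock output factor Dbp (-0.97 ± 0.21) were higher in duodenum.

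Of 17 factors known for intestinal roles, 15 were higher in duodenum and 2 in liver (median -7.85, or -7.62 with the 2 genes absent from liver at their bound). Cdx2, which sets intestinal identity, was at 119.8, 159 and 235 CPM in duodenum and 0, 0.0908 and 0.262 CPM in liver (-10.71 ± 0.17). The vitamin D receptor Vdr was at 109, 161 and 229 CPM and 0, 0.135 and 0.784 CPM (-9.77 ± 0.21), and Pdx1 at 20.4, 34.4 and 40.9 CPM in duodenum and at most 0.131 CPM in liver. Isx, a homeobox gene that controls retinoid and carotenoid uptake, had no count in any liver library and was at 8.44, 15.4 and 21.6 CPM in duodenum, at least 698-fold higher against a floor of 3 counts over the liver group. Neurod1, of enteroendocrine cells, also had none in liver and was at least 109.5-fold higher.

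The secretory factors Atoh1 and Spdef reached 18.4 to 31.7 and 5.79 to 13.2 CPM in duodenum, against at most 0.131 and 0.180 in liver. Cdx1 (6.90 to 30.2 CPM in duodenum) and Nkx2-3 (7.96 to 31.9 CPM) reached at most 0.125 and 0.262 CPM in liver. Gata5 (-8.90 ± 0.33), Klf4 (-5.0 ± 0.21), Gfi1 (-3.95 ± 0.34), Foxf1 of the mesenchyme (-2.31 ± 0.12) and Ascl2 of stem cells (-3.36 ± 0.33) were called higher in duodenum as well, as was Neurog3, at 0.606 to 2.56 CPM in duodenum and at most 0.0635 in liver. Maf was at 0.32 ± 0.15, turned to -0.72 by library totals, and lost its call with DESeq2, within either batch, in males alone, with no batch term and with no filter. The liver and gut factors named had adjusted p from 1.47e-29 to 0.048 by edgeR.

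Short motifs bound by some of these factor families were searched on both strands in the 250 bases before each gene start (RefSeq, GRCr8), a window held for 11198 of 14081 tested genes with a symbol. The letters were GTTAAT, a half-site of HNF1, CAAAGTCCA for HNF4, TTGCNNAA for C/EBP and TTTATG for CDX. GTTAAT lay in 6.73% of the windows of genes over 2-fold higher in liver, 4.17% of those over 2-fold higher in duodenum and 3.90% of those of other tested genes, against 6.45% of all 33469 windows. Where the log2 difference was above 5 the share was 14.6%, and where it was below -5 it was 5.71%. The HNF4 letters lay in 2.55% and 1.23% of these outer sets (0.385% of the windows of tested genes and 0.338% of all windows). For C/EBP the shares were 17.9% and 8.80% (7.88% of tested and 9.22% of all). For CDX they were 9.51% and 11% (6.88% of tested and 11.4% of all). A gene can have several windows, and a match is a string of letters, not a bound site.

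The windows of 3 genes higher in liver and 3 genes higher in duodenum are shown 5′ to 3′ on the strand of the gene. They end at the base before the start, with matches to the searched motifs in capitals. They show how the letters fall in promoters on both sides of the comparison. Alb (chr14:17906980-17907229, strand -) held GTTAAT 82 bases and the C/EBP letters 144 bases before the start, counted to the first base of the match. The fibrinogen gene Fgb (chr2:170700876-170701125, strand -), at 4436, 6254 and 9286 CPM in liver and 0, 0.239 and 0.432 CPM in duodenum, held the HNF1 letters 90 bases and the C/EBP letters 141 bases before it. Cps1 (chr9:76063613-76063862, strand +), which fixes ammonia for the urea cycle, held the HNF4 letters 71 bases before it. The hepatocyte list, which holds Alb, Fgb and Cps1, summed to 829 to 1296 CPM in duodenum. Alb reached at most 13.6 CPM there, and the smallest difference in the list was 2.24. Si (chr2:159884903-159885152, strand -) held the HNF1 letters at 167, the C/EBP letters at 111 and the CDX letters at 45 bases, Alpi (chr9:95224781-95225030, strand -) the HNF4 letters at 44 bases, and the lactase gene Lct (chr13:42376873-42377122, strand -) the CDX letters at 45 bases.
Alb: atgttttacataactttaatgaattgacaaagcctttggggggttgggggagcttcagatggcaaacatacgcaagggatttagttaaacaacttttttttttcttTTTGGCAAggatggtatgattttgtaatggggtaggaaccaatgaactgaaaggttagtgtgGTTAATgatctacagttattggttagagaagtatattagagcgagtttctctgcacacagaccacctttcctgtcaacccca
Fgb: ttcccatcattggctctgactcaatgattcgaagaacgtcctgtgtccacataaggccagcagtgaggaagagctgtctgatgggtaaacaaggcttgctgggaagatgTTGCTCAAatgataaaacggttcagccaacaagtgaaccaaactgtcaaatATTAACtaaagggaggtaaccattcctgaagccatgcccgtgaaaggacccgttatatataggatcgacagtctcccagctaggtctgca
Cps1: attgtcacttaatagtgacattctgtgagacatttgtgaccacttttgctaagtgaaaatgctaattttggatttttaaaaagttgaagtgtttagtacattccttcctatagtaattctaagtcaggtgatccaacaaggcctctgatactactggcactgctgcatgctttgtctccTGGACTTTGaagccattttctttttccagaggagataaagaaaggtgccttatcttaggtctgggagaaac
Si: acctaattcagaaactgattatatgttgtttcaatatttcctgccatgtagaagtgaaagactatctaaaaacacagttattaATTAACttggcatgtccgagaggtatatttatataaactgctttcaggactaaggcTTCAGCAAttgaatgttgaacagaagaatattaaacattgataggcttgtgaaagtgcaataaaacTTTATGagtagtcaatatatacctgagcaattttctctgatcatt
Alpi: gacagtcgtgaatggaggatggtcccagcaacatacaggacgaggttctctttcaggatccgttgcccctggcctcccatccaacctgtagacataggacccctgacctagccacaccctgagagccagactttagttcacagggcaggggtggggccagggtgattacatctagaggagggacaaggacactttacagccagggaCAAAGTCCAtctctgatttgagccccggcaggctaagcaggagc
Lct: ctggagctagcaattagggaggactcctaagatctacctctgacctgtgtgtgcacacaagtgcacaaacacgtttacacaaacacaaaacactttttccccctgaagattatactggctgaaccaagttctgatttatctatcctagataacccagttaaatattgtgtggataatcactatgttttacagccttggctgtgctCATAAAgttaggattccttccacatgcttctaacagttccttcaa

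Genes of junctions and the cytoskeleton were split between the organs. Of 22 genes of keratins, junctions and microvilli, 15 were higher in duodenum and 7 in liver (44.5% and 38.2% of all genes were), with a median of -2.35. Myo1a, the motor of the microvillus, was at 364, 539.9 and 671 CPM in duodenum and at most 0.525 CPM in liver. The claudins Cldn15, which forms a cation pore of the small intestine (-8.76 ± 0.17), and Cldn7 (-8.94 ± 0.21) were duodenal, as was the adhesion protein Epcam (-6.13 ± 0.17). In liver, connexin 32 (Gjb1) was at 680.3, 859 and 1640 CPM against 37.5, 44.6 and 94.1 CPM, and N-cadherin, Cdh2 (5.09 ± 0.12), and Cldn1 (5.87 ± 0.21) were higher, as was Cldn14, at 14.7 to 54.6 CPM in liver and at most 0.0617 CPM in duodenum. None of these 8 overlapped, and their edgeR adjusted p ran from 5.93e-28 to 2.08e-21.

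Markers of the main epithelial cell of each organ were higher in that organ for 11 of 11 hepatocyte and 10 of 11 enterocyte genes. Of 5 genes of bile duct cells 4 were higher in duodenum, among them Epcam and Sox9, which are also genes of the intestinal epithelium. Of 6 Brunner gland markers 3 were tested, and 2 of these were higher in duodenum. Their sum was higher in liver, at a median of 45.8 CPM against 5.23 CPM in duodenum. Of 8 listed genes of the distal small intestine 5 were tested, and all 5 were higher in duodenum than in liver. From that list Fabp6 and Tmigd1 were filtered for low counts, and Fgf15 had no row of that symbol.

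Markers of the other cell types of the duodenal wall were nearly all higher there. This held for 9 of 9 goblet cell markers, 10 of 10 enteroendocrine, 7 of 7 tuft, 10 of 10 smooth muscle and 9 of 10 enteric neuron and glia markers. The trefoil peptide Tff3, which protects mucus, was at 145, 300.1 and 484 CPM in duodenum and 0, 0.192 and 0.598 CPM in liver. Agr2, a disulfide isomerase that folds mucins (-11.74 ± 0.21), and the goblet proteins Clca1 (-12.74 ± 0.34) and Zg16 (-12.65 ± 0.34) followed. The granin Chgb was at 95.4, 122 and 171 CPM in duodenum (-10.45 ± 0.21), and the hormones Cck and Sst at 9.56, 14.8 and 25 and 7.73, 9.59 and 17.5 CPM, against at most 0.127 and 0.139 CPM in liver. Avil (-5.0 ± 0.15) and the taste channel Trpm5 (-4.31 ± 0.24) of tuft cells were also higher in duodenum.

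Actg2, the actin of visceral muscle, was at 211, 333 and 627 CPM in duodenum and 0.298, 1.39 and 2.65 CPM in liver, and Des (-6.11 ± 0.14), Cnn1 (-7.45 ± 0.18) and Lmod1 (-5.10 ± 0.14) were alike. Vip, a neuropeptide of enteric neurons, had no count in any liver library and was at least 574-fold higher in duodenum, while Gfap, a glial filament also made by hepatic stellate cells, was higher in liver (2.62 ± 0.19). Of 8 Paneth cell and antimicrobial genes 7 were duodenal, among them the defensin Defa24 (-12.36 ± 0.34) and the phospholipase Pla2g2a (-5.54 ± 0.31). The other, Nod2, was at 0.72 ± 0.20 and at -0.32 by library totals, and it lost its call within batch 2 and in females alone. All 14 stem cell and cell cycle genes were higher in duodenum (median -3.52), with the crypt marker Olfm4 at 70.9, 141 and 237 CPM against 0, 0.231 and 0.477 CPM and the replication genes Mcm5 (-3.64 ± 0.12) and Pcna (-2.0 ± 0.085). The markers named had adjusted p from 9.08e-29 to 0.00141 by edgeR.

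Pancreatic acinar genes were called higher in duodenum for 15 of 15, but 0 of them separated the organs without overlap. Trypsinogen 1 (Prss1) was at 0, 90.9 and 10101 CPM in duodenum and at most 0.139 CPM in liver, and the lipase Cel at 0.123, 39.9 and 4406 CPM against 0, 0.139 and 0.394 CPM (-9.88 ± 1.27). Without duodenum female replicate 4, chosen after seeing the data, 15 were still called and the median went from -9.84 to -8.67. The acinar sum was higher in each of the 8 female livers than in any of the 8 male livers. Of the 15 genes, however, 2 were called higher in female than in male livers, and 0 in male livers. Carboxypeptidase Cpa1, chosen after its values were seen, was at 14.7, 194 and 479 CPM in the 8 female livers and 0, 0 and 0.444 CPM in the 8 male livers. Its female excess was 11.03 ± 2.07 in liver (edgeR adjusted p = 0.000347), and it was not called within batch 1 or batch 2.

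Markers of the resident cells of the liver were mostly higher there. Of 14 Kupffer cell and macrophage markers 13 were called higher in liver, 4 of which turned sign under library totals. Clec4f, a lectin of Kupffer cells, was at 144, 189 and 385 CPM in liver and 0, 0.0673 and 0.159 CPM in duodenum, Marco reached 14.2 to 129 CPM in liver against at most 0.0730 in duodenum, and Mrc1 differed by 3.35 ± 0.15. The lysozyme Lyz2 was the exception, at 254, 523 and 703 CPM in duodenum and 14.7, 28.8 and 54.6 CPM in liver (-4.15 ± 0.15). Of 9 markers of the liver sinusoid 8 were higher in liver, with Lyve1 at 67.5, 92.4 and 134 CPM against 5.89, 8.77 and 11.2 CPM and Gpr182 at 6.02 ± 0.14. Stellate cell and fibroblast genes divided, 4 of 11 higher in liver and 6 in duodenum (38.2% and 44.5% of all genes were). The stellate genes Lrat, which stores retinol as esters (1.59 ± 0.17), Reln (1.94 ± 0.21), Hgf (3.39 ± 0.23) and Ecm1 (3.29 ± 0.11) were higher in liver, and the collagens Col1a1 (-3.38 ± 0.17) and Col1a2 (-1.79 ± 0.13) and the proteoglycans Dcn (-3.60 ± 0.16) and Lum (-4.59 ± 0.24) in duodenum.

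Immune genes of the gut mucosa were higher in duodenum. Of 10 B cell and plasma cell genes 8 were higher in duodenum, led by Jchain, which joins polymeric antibodies, at 309, 471 and 757 CPM against 1.91, 3.62 and 8.06 CPM. Pigr, the receptor that carries those antibodies across epithelia, went the other way, at 5621, 8524 and 14575 CPM in liver and 2516, 3265 and 4187 CPM in duodenum (1.43 ± 0.10), and Xbp1 stood at 0.67 ± 0.10, or -0.41 by library totals. Of 11 T and NK cell genes 7 were higher in duodenum, such as Cd3g (-5.16 ± 0.33), Cd3e (-3.09 ± 0.25) and the integrin Itgae of intraepithelial lymphocytes (-1.93 ± 0.15). Cd4 was at 0.36 ± 0.16, stood at -0.72 by library totals, and lost its call with DESeq2, within either batch, in males alone and with no filter. Adjusted p of the liver cell and immune genes ran from 3.07e-26 to 0.0414 by edgeR.

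Some abundant genes were not called different. Besides Apoa1 and Apoa4, the most abundant were the mitochondrially encoded Mt-co2 (0.063 ± 0.12), Mt-cyb (0.22 ± 0.12) and Mt-nd3 (0.22 ± 0.11), the ATP synthase subunit Atp5f1b (-0.033 ± 0.11), the chaperone Hsp90ab1 (0.046 ± 0.088), the glutathione transferase Gsta5 (-0.23 ± 0.15), Oat, the ornithine aminotransferase (0.17 ± 0.090), and Rpl32l5, a ribosomal protein copy whose reads may belong to its parent (-0.20 ± 0.18), with edgeR adjusted p from 0.0563 to 0.775. Hsp90ab1 was at 650.3, 822 and 1074 CPM in liver and 649.6, 804 and 1091 CPM in duodenum, ranges that coincide. By library totals all 8 were called higher in duodenum, between -1.29 and -0.86.

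Nuclear subunits of the respiratory chain had 10 of 16 higher in duodenum and 1 in liver, by a median of -0.30, and 0 passed the test against 2-fold. Without duodenum female replicate 4, chosen after seeing the data, 6 were higher in duodenum and the median was -0.20. Uqcrc1 (-0.79 ± 0.078), Cox5a (-0.66 ± 0.13), Ndufv1 (-0.42 ± 0.073) and Sdhb (-0.38 ± 0.093) were among the former, and Cox5a and Sdhb lost their calls within batch 2, Sdhb also in males alone. Ndufa4 was the liver call, at 0.83 ± 0.14 and -0.25 by library totals. As a share of all counts, transcripts of the mitochondrial genome made up 8.74 ± 1.37% in liver (SD, n = 16) and 15.5 ± 3.55% in duodenum (n = 14). Of 17 genes often used as references, 9 were called higher in liver and 3 in duodenum (38.2% and 44.5% of all genes were). The scaling turned the sign of 6 of the calls. Gusb (2.84 ± 0.097) and Hprt1 (1.92 ± 0.13) were higher in liver and Ywhaz (-1.71 ± 0.077) in duodenum under both scalings.

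Ratios of related genes within a library do not depend on how the organs are scaled to each other. They are ratios of counts, not divided by gene length, so only their difference between the organs is read. For 15 of 16 listed pairs of relatives the log2 ratio of the first to the second gene was computed in each library (counts + 0.5). The remaining listed pair had a gene without a row of that symbol. Ratios were compared by two-sided permutation tests, adjusted over the pairs. The pairs were chosen with earlier results of these data known, so their calls are a description and no independent support. All 15 differed, 14 with a higher ratio in liver, and for 13 no liver library overlapped a duodenum library. The smallest p that 100000 permutations can give is 1e-05, adjusted to 1.07e-05, and 14 pairs reached it. Soat2/Soat1 was the pair above it, with an adjusted p of 0.00037. Where a gene is near 0 in a tissue the size of its ratio depends on the added 0.5.

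The ratios of enzyme pairs differed widely. The urea-forming Arg1 and the mitochondrial Arg2 had a log2 ratio of 14 ± 0.87 in liver and -5.44 ± 0.51 in duodenum (SD, n = 16 and n = 14). For the methionine adenosyltransferases Mat1a and Mat2a the ratios were 6.78 ± 0.35 and -6.25 ± 0.93. Of the triglyceride synthases, Dgat2 over Dgat1 was 4.43 ± 0.69 in liver and -1.78 ± 0.27 in duodenum. Gys2 over Gys1 was 4.08 ± 0.57 and -6.45 ± 1.68, and Alpl over Alpi 5.36 ± 2.03 and -7.77 ± 1.30. Each of these ratios was far higher in liver.

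Transcription factors and transporters differed too. The ratio of Hnf4a to Hnf4g was 6.65 ± 0.63 in liver and 1.08 ± 0.72 in duodenum. Fabp1 over Fabp2 went from 11.10 ± 0.94 in liver to 1.36 ± 0.50 in duodenum, and Slc2a2 over Slc2a5 from 5.68 ± 0.84 to 1.75 ± 0.38. The ratio was lower in liver for Foxa3 over Foxa1 (-1.26 ± 0.56 against 0.41 ± 0.30). Bile acid importers (Slc10a1/Slc10a2), cadherins (Cdh2/Cdh17), claudins (Cldn14/Cldn15) and apolipoproteins (Apoa2/Apoa4) differed by 15.31, 12.23, 18.08 and 13.66, and Acacb over Acaca by 2.17.

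**Figure D4:**
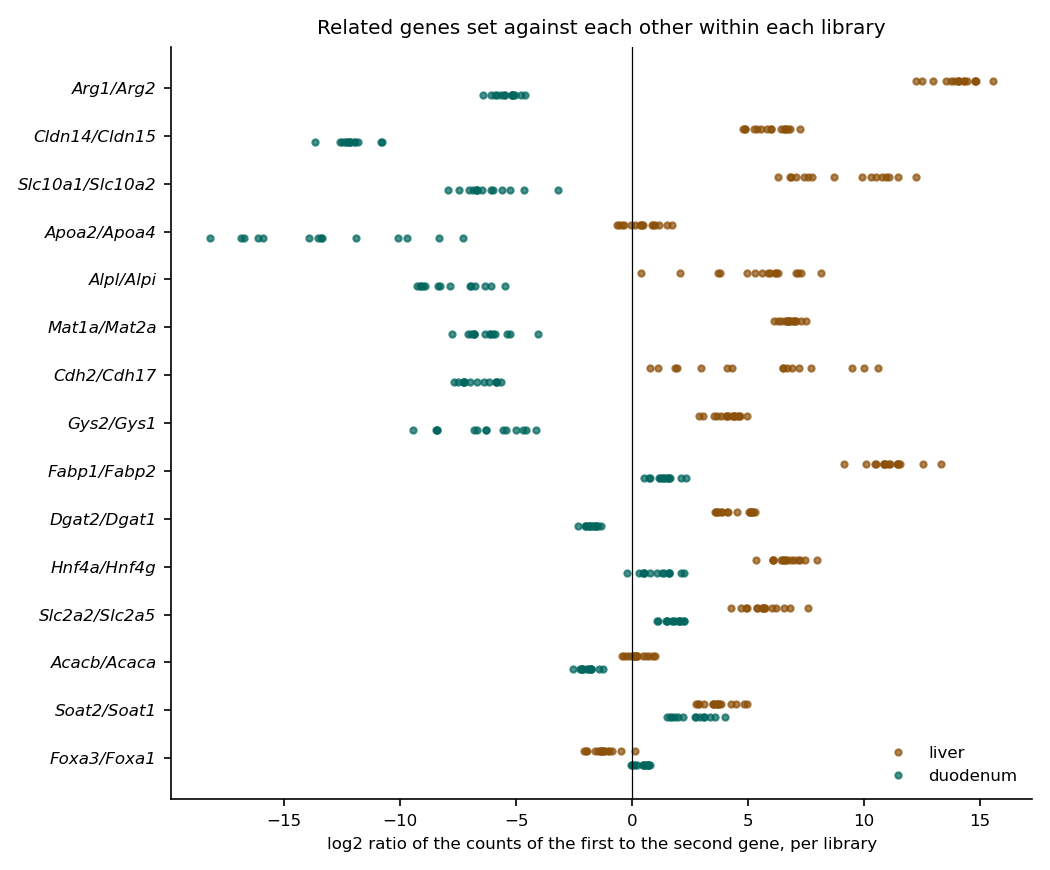
Log2 ratio of the counts of 2 related genes (horizontal) in each of the 16 liver and 14 duodenum libraries, for 15 pairs ordered by the difference between the tissues. Arg1/Arg2 at the top differs by 19.45 and Foxa3/Foxa1 at the bottom by -1.67.

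Transcripts of the same gene were also used in different proportions. Of 7100 genes with at least 2 transcripts tested by limma diffSplice, 1505 (21.2%) were called at an adjusted p under 0.05. For 22 of these the most abundant transcript was the same in every liver library and another in every duodenum library, with at least 10 counts of the gene in each. In 7 of the 22 the gene as a whole did not pass the test against 2-fold.

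The transcript of the organic anion carrier Slco2b1 that prevails in liver made up 91.0 ± 3.58% of the gene there (SD, n = 16) and 20.4 ± 11.5% in duodenum (n = 14). For the insulin receptor Insr the liver form made up 86.4 ± 9.96% and 12.4 ± 7.58%. For Tf it made up 98.4 ± 1.16% in liver and 3.09 ± 1.5% in duodenum, where the gene is low. The liver form of adenosine kinase (Adk) took 70.3 ± 5.67% and 4.68 ± 2.17%, that of the folate enzyme Fpgs 83.5 ± 7.30% and 1.13 ± 2.01%, and that of ceruloplasmin (Cp) 86.7 ± 7.04% and 24.7 ± 7.82%. Saa4 (61.3 ± 9.47% against 2.69 ± 3.35%), Saal1 (89.6 ± 6.40% against 0.892 ± 0.390%) and Cyp2j3 (67.6 ± 7.40% against 10.6 ± 4.59%) also switched. In Mphosph8, a chromatin protein, the liver form took 63.1 ± 6.47% and 22.7 ± 5.78% while the gene differed by 0.24 ± 0.088 and by -0.82 under library totals, and lost its call with DESeq2, within batch 2 and in males alone. The diffSplice adjusted p of these 10 genes ran from 2.2e-41 to 1.35e-14, and Insr was chosen after its values were seen. Transcript levels are estimates, and transcripts that share most of their sequence can take each other's reads.

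The difference between the organs itself depended on sex for some genes. The test of the sex difference in liver against that in duodenum called 846 genes (5.67%) with edgeR at an adjusted p under 0.05, 381 (2.55%) with a more female and 465 (3.12%) with a more male liver. In liver 2888 genes (19.3%) differed between the sexes and in duodenum 14 (0.0938%), at the same adjusted p. Within batch 1 the interaction called 184 genes and within batch 2 176, and 843 and 842 of the 846 had the same sign there. In the adult rat, the liver is known for sex differences that follow the sex-specific rhythm of growth hormone release.

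Of the 8 genes with the smallest p in the female direction, the 7 described here were higher in female than in male livers. Lifr, the receptor for leukaemia inhibitory factor, was at 1323, 3374 and 6552 CPM in female livers and 7.62, 39.7 and 65.7 CPM in male livers, against 9.21, 11.9 and 19.3 and 6.68, 10.3 and 24 CPM in female and male duodena. The female excess in liver was 6.78 ± 0.39, and its difference from that in duodenum 6.78 ± 0.50 (6.51 and 7.31 within batches 1 and 2). Cux2, a repressor of male-biased genes in liver, was at 80.3, 144 and 164 CPM in female and 0.381, 2.39 and 7.23 CPM in male livers (5.55 ± 0.43 for the difference). Keratin Krt23 (6.99 ± 0.42), the corepressor Trim24 (4.66 ± 0.30), the GTPase Ifi47 (3.95 ± 0.31) and the carbonic anhydrase Car12 (3.97 ± 0.34) were alike. For Prom1 (5.25 ± 0.40) the tissue difference over both sexes was -2.76 ± 0.20, but -0.10 and not called in females alone, and its interaction was not called within batch 1.

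In the male direction, Mup5 was at 11582, 22054 and 41859 CPM in male livers and 0.499, 1.72 and 10.2 CPM in female livers, with at most 2.92 CPM in any duodenum, and between the organs it was not called in females alone. Cyp2c11, the male steroid hydroxylase, was at 1178, 2142 and 3090.3 CPM in male and 0, 0.332 and 2.07 CPM in female livers, with at most 0.758 CPM in duodenum. For both genes the female livers overlapped the duodena and the male livers stood far above them. Hsd11b1, which reactivates glucocorticoids, was at 202, 375 and 735 CPM in male and 4.30, 8.30 and 16.2 CPM in female livers (-5.36 ± 0.40). Fam89a (-5.18 ± 0.48), Gimd1 (-8.34 ± 0.78), Enpp2, which makes lysophosphatidic acid (-2.03 ± 0.19), the receptor kinase Mst1r (-3.80 ± 0.40) and the ribonucleotide reductase subunit Rrm2 (-3.66 ± 0.40) followed. The edgeR adjusted p of these 15 interactions ran from 2.02e-12 to 1.77e-07, and their sex differences in duodenum had adjusted p of 0.997 to 1.

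**Figure D5:**
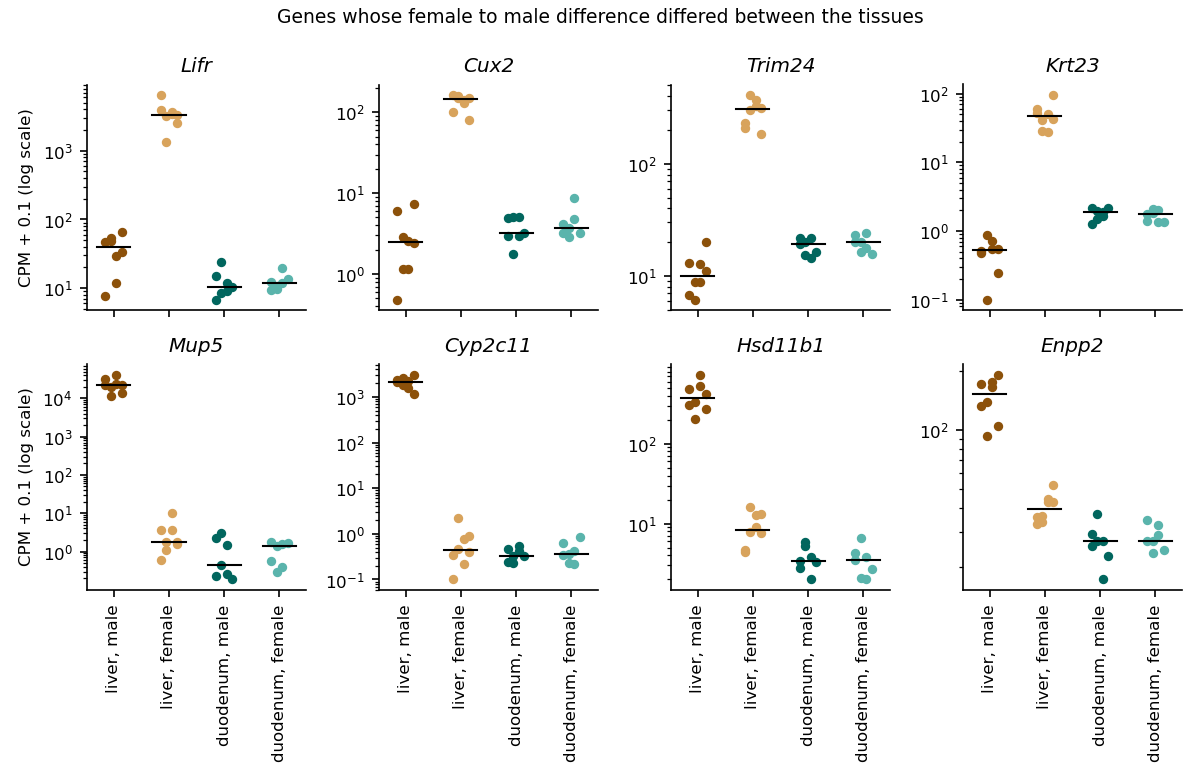
Levels of 8 genes (CPM + 0.1 on a log scale) in each library by tissue and sex, with a bar at the median of each group. In the upper row female livers stand apart and in the lower row male livers do, while male and female duodena overlap.

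Members of the lists shared this pattern to different degrees. Of the 14 stem cell and cell cycle genes 6 had an interaction, as had 5.67% of all genes. Of the same 14, 8 were higher in male than female livers (10.8% of all genes were). The duodenal excess of Mcm5 was thus larger in females (-1.05 ± 0.24). Its interaction was not called within batch 1 or 2, or with the number in the library name as block. Cholesterol synthesis had 6 of 17 genes higher in female livers (8.55% of all genes were) and 4 with an interaction, such as Cyp51 (0.75 ± 0.21), which was likewise not called within a batch. Among conjugating enzymes 5 of 20 had an interaction. In Sult1a1 the sexes differed in opposite directions, by -0.53 ± 0.14 in liver and 1.03 ± 0.17 in duodenum (interaction -1.56 ± 0.22, edgeR adjusted p = 1.95e-05), an interaction not called within batch 1. The difference in liver was not called within batch 1 either, and that in duodenum was not called within batch 1 or 2 or when male duodenum replicate 1 was added. The intestinal cadherin Cdh17, a duodenal gene, was at 3.07, 45.4 and 135 CPM in male and 0.180, 1.41 and 3.10 CPM in female livers (interaction -5.32 ± 0.83, edgeR adjusted p = 7.9e-05), and the bile acid importer Slc10a2 likewise differed (-3.80 ± 0.46, edgeR adjusted p = 1.41e-06). The interaction of Slc10a2 lost its call when male duodenum replicate 1 was added, and that of Cdh17 within batch 1.

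Of the 14 genes that differed between the sexes in duodenum (4 higher in females, 0.0268% of all genes, and 10 in males, 0.067%), 11 also differed in liver. Genes of the Y chromosome such as Ddx3y separated the sexes in both organs, and Kdm6a, an X-linked histone demethylase, was higher in females in both, by 0.80 ± 0.12 in liver and 0.84 ± 0.12 in duodenum. The alpha globin Hba-a2, a transcript of red blood cells, was lower in females by -1.02 ± 0.29 in liver and -1.63 ± 0.31 in duodenum. The beta globin Hbbl1 differed by -1.37 ± 0.31 and -1.62 ± 0.33. These 4 genes were chosen after their values were seen, the edgeR adjusted p of the last 3 in duodenum ran from 0.00041 to 0.0309, and within batch 1 or 2 those 3 were not called there. In liver Kdm6a and Hbbl1 were not called within batch 1, and Hba-a2 was not called within batch 1 or 2. Hbbl1 in duodenum was also not called with no batch term or no filter.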

How the data were processed

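Polyadenylated RNA of 16 liver and 14 duodenum vehicle controls was compared. The authors deposited 1 table of estimated counts per gene and 1 per transcript for each tissue, made from the reads with Salmon 1.10.3, STAR 2.7.11b, UMI-tools 1.1.5, Trim Galore 0.6.10, FastQC 0.12.1, cutadapt 4.9 and MultiQC 1.28 among the tools, on build mRatBN7.2, per the submitters' processing notes. The sources used here give no settings. The counts were rounded to whole numbers, and genes were kept by filterByExpr with a minimum count of 10.

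The members, gene lists and tests were chosen with earlier results of these data known. Genes were tested in edgeR 4.0.16 (quasi-likelihood, TMM scaling) with terms for tissue within sex and for batch. The tissue contrast is the mean over the sexes, and p-values were Benjamini-Hochberg adjusted over all 14926 genes. The test against 2-fold used glmTreat, and transcript usage limma 3.58.1 diffSplice. R 4.3.3, Python 3.11.15, pandas 2.3.3, numpy 2.4.6, matplotlib 3.10.9 and, as an alternative, DESeq2 1.42.0 were used, and the scripts were tested on simulated data.

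Of 618 listed genes in 42 lists, 564 were tested, 22 were filtered and 32 had no row of that symbol. Genes are named by rule: the 10 with the highest CPM over 2-fold on each side, up to 4 called genes of each list and direction with the smallest p, all members of the transcription factor, bile acid transport and lipoprotein lists, the 10 uncalled genes with the highest CPM, 8 interactions in each direction, 10 transcript switches and the pairs. Some genes and pairs the rule selects are not reported here. Totals ran from 6153370 to 25503800 counts per library. The alternatives were other scaling, filter, batch, block and tool settings, each sex alone and each library left out.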

Additional observations from a re-analysis of the deposited data

Results flagged for a closer look

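Dixon's test was used within each tissue and sex group. It singled out a library where its gap to the nearest was large for the range of the group. For normally distributed values, chance gives such a gap in about 1 of 20 groups. Whether the levels and totals follow that distribution was not tested. A library was singled out in 27 of 264 groups tested, and in all 27 it was the highest of its group. The 27 are therefore not read against that rate.

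Among totals, liver male replicate 8 stood at 20743089 counts and duodenum male replicate 5 at 25503801. Ribosomal protein genes took 2.02% of counts in liver female replicate 4, which also had a summed respiratory chain level of 5574 CPM, 5.68 CPM of Rbp2 and 5.83 CPM of S100g. Duodenum female replicate 4 had 51822 CPM of pancreatic acinar genes and 44.9 CPM of Brunner gland markers. Duodenum male replicate 3 had 333 CPM of complement genes and 1652 CPM of stellate cell and fibroblast genes. Duodenum male replicate 8 had 571 CPM of enteroendocrine markers and 4881 CPM of Actbl2, and duodenum female replicate 6 had 16.9 CPM of C3.

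In the livers of males, replicate 5 had 2768 CPM of enterocyte markers and 16306 CPM of Serpina1. Most of that enterocyte sum was Apoa4 (2325 CPM), which was expressed in all livers. Replicate 1 had 204 CPM of stem cell and cell cycle genes, replicate 6 had 3.28 CPM of Fcgbp and 1188 CPM of Actbl2, and replicate 3 had 1.84 CPM of Lypd8l2. In the livers of females, replicate 2 had a sum of 14749 CPM for the B and plasma cell list, most of it Pigr, the antibody receptor of epithelia. That library also had 11735 CPM of the gene listed as AABR07034632.1. Female liver replicate 7 had 10.2 CPM of Mup5, 3.25 CPM of Fcgbp, 66.2 CPM of Ighm and 1.23 CPM of Si. Enteroendocrine markers summed to 2.37 CPM in female liver replicate 6 and genes of the distal small intestine to 2.62 CPM in replicate 5.

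The sex difference of liver differed from that of duodenum, by the edgeR test of the difference itself, for 846 genes. In the female direction the log2 differences were 6.99 for Krt23, 4.66 for Trim24, 6.78 for Lifr, 5.25 for Prom1, 3.95 for Ifi47, 5.55 for Cux2 and 3.97 for Car12. In the male direction they were -13.22 for Mup5, -12.26 for Cyp2c11, -5.36 for Hsd11b1, -5.18 for Fam89a, -8.34 for Gimd1, -2.03 for Enpp2, -3.80 for Mst1r and -3.66 for Rrm2.

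Outside the comparisons, male duodenum replicate 1 held Fabp6 at 3521 CPM of its library total, against at most 4.30 in the 14 duodenum libraries used.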

How the results depend on the processing

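The number of genes that differed between the organs ran from 10101 in males alone to 14771 with no filter, and from 5067 to 8733 for those over 2-fold, in each alternative within 1.5 times the count given. Leaving out each library in turn gave 12225 to 12406 and 5987 to 6129. The interaction ranged from 750 to 869 genes with a library left out and was 633 with no batch term, 584 with the replicate block and 1231 with limma voom. It fell to 184 within batch 1 and 176 within batch 2, where fewer samples enter. Sex differences in liver went to 612 within batch 1 and to 2138 to 3087 with a library left out. In duodenum the 14 genes became 25 with DESeq2, 9 with no batch term, 7 within batch 1, 6 within batch 2 and 8 to 18 with a library left out. The 8 came without male duodenum replicate 3, and 9 without female duodenum replicate 5. Transcript usage was called in 758 genes where transcripts needed a mean of 50 counts, with fewer genes tested. All 15 pairs were called in each of their alternatives. By library totals the calls were 2267 higher in liver and 11432 in duodenum, those over 2-fold 1332 and 7401, and the sex differences in liver 1361 and 1169 (female and male higher).

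Of the 295 named results, 55 lost calls or turned sign in at least 1 alternative. By library totals the tissue difference turned for Cd4 (-0.72), Esrrg (-0.0032), Foxa3 (-0.34), Hnf4a (-0.15), Hsp90ab1 (-1.03), Maf (-0.72), Mphosph8 (-0.82), Mt-co2 (-1.01), Mt-cyb (-0.86), Mt-nd3 (-0.86), Ndufa4 (-0.25), Nod2 (-0.32), Oat (-0.90), Onecut2 (-0.45), Pklr (-0.86), Sar1b (-0.49), Slc46a1 (-0.16), Xbp1 (-0.41), Xpnpep2 (-0.13) and Zhx2 (-0.19). With the replicate block Apoa1 stood at 0.26 and Apoa4 at 0.59, with the number in the library name as block at 0.29 and 0.61, and with limma voom at 0.080 and 0.62. In males alone the sign turned for Maf (-0.069), Oat (-0.16), Pklr (-0.079) and Slc10a2 (0.46). In females alone the sign turned for Apobec1 (0.13), Elovl6 (0.11) and Mt-co2 (-0.035). Within batch 1 the sign turned for Hsp90ab1 (-0.11), Mt-co2 (-0.088), Mt-nd3 (-0.088) and Scarb1 (0.027). Within batch 2 the sign turned for Atp5f1b (0.12), Gsta5 (0.14), Pklr (-0.017) and Rpl32l5 (0.24). Hsp90ab1 stood at -0.0081 with DESeq2 and -0.0080 with its size factors, and Atp5f1b at 0.019 with male duodenum replicate 1 added. The causes were not tested.

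Replicate numbers did not meet the rule for pairing liver with duodenum, a correlation above 0.1 in each pair: over 14 pairs of the same number the correlation of deviations from the group means ran from -0.23 to 0.52, with 6 above 0.1 and 5 libraries closest to their own number (5 and 6 by the number in the library name). Whether some pairs share a source was not tested. With the replicate block 12245 genes were called between the organs, 6030 over 2-fold, 584 interactions and 1385 genes for transcript usage. The interaction of Cyp51 was not called with it. Female minus male within an organ could not be fitted with the replicate block. Batch 3 was not fitted alone, since it holds no female liver. At these depths, genes with few counts in an organ have a bound or a range of CPM and no fold.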
